A study of Homo sapiens with 4 samples.

Results

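Apolipoproteins are the protein components of plasma lipoproteins, and the 10 described here are APOA1, APOA2, APOA4, APOA5, APOB, APOC1, APOC3, APOE, APOH and APOM. The members were chosen by gene symbol and not by a cut on any measured value, but with earlier results of these data known. All 10 were found on the array, out of 22395 genes with a name of their own, and for each the probe set of highest mean signal was used. A probe set is the group of short DNA probes that read one transcript, and 9 of the 10 genes had 1 probe set while APOM had 7. The cells were Huh7, a human line from a hepatocellular carcinoma, transfected with the plasmid pcFLAG (the control) or with pcFLAG-hSTYK1, which carries human STYK1, a receptor-like kinase. Each group had 2 arrays, called array 1 and array 2 after the replicate numbers in their titles, and the labels give neither the time after transfection nor the plasmid's promoter and do not say whether the samples of a group were separate cultures. The p-values thus rest on the spread among these arrays alone, and part of that spread may be technical.

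Hepatocytes load APOB with lipid in the endoplasmic reticulum to make very low density lipoprotein, while APOA1 and APOA2 form high density lipoprotein. The smaller exchangeable apolipoproteins move between particles and act as cofactors, inhibitors or receptor ligands: APOE binds receptors that take up particles, APOC3 slows triglyceride clearance and APOA5 speeds it. In the human liver most of these genes are under the control of HNF4A and other liver transcription factors. APOA4 is made mainly by the intestine in humans.

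RefSeq promoter windows of 300 bases, from 250 before the annotated start to 50 after it (build GRCh38.p14), were found for 7 of the 10 genes. The windows of APOC1 and APOA4 are shown because these were the genes that read lower on both STYK1 arrays than on both controls. Neither difference passed the test (limma, adjusted p = 0.979), and the STYK1 arrays read APOA4 at background level. Groups that did not overlap, in either direction, were found for 32.8% of all probe sets. Those of APOA2 and APOH are shown as genes whose signals were nearly equal in both groups. Capitals mark matches, on either strand, to the motifs searched, and the sequences run 5′ to 3′ along the gene.
APOC1 (chr19:44914422-44914721, plus strand): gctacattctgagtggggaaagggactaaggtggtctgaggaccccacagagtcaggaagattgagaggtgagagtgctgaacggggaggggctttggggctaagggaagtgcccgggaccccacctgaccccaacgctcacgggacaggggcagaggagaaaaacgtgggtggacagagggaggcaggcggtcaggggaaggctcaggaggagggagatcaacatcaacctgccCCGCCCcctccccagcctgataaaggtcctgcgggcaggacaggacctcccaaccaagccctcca
APOA4 (chr11:116823255-116823554, minus strand): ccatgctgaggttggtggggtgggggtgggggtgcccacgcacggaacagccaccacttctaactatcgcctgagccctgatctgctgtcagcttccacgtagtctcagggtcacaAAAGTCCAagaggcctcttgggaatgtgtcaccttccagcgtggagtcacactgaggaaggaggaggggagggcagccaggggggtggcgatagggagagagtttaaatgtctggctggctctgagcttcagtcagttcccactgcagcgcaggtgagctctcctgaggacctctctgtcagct
APOA2 (chr1:161223579-161223878, minus strand): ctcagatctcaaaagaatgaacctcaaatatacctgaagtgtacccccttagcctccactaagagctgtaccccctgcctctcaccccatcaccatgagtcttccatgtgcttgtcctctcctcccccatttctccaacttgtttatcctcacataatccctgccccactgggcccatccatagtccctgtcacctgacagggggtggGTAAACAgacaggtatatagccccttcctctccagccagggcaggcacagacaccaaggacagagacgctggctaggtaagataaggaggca
APOH (chr17:66229366-66229665, minus strand): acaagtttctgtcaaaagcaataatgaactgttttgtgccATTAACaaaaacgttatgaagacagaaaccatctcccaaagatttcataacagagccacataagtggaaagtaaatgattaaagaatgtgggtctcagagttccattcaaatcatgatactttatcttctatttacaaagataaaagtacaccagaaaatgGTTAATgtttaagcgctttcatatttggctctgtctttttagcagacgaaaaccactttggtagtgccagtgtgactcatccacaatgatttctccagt

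The letters searched were TATAAA (the TATA box), AGGTCA (binding site of nuclear receptors), AAAGTCCA (core of an HNF4 site), GTTAAT (short HNF1 site), TGTTTAC (forkhead site), GGGCGG (GC box) and CACGTG (E-box). The APOA4 window held the HNF4 core, which 1.14% of all 35116 promoter windows held. The APOC1 window held a GC box, present in 45% of all windows. The APOA2 window held a forkhead site, present in 3.42%, and the APOH window held the short HNF1 site at 2 places, present in 6.88%. Of the windows not shown, the first of APOA5 held the letters TATAAA (11.5% of all windows), beginning at base −1 from the annotated start. It also held the nuclear receptor site at 2 places (13.8%), the short HNF1 site and the E-box (7.26%). The second window of APOA5 held the nuclear receptor site alone. The first window of APOE held the GC box at 2 places, and the APOM window held none of these letters. No match overlapped another in the windows shown. A match of letters describes the sequence alone, and no factor was measured on it here.

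The arrays gave a log2 signal for 53617 probe sets, and their number limits the precision. As a floor for background served the 95th percentile of 462 probe sets of olfactory receptors, genes not expected in liver cells, which was 0.75 to 0.77 per array. STYK1 read 0.26 and 0.61 on the control arrays and 7.40 and 7.86 on the STYK1 arrays, so the transfected gene followed the labels. The measured difference was 7.19 log2 units (95% interval 6.65 to 7.73; limma, adjusted p = 0.0373). This call was lost on leaving out any 1 array, where the difference was 6.96 to 7.42. Both controls lay under the floor. With the floor put in for their values, the STYK1 signal was 117-fold higher, a bound that carries no sampling error. Of the markers of hepatocytes, 7 of 7 measured lay above the floor on all 4 arrays, with summed signals of 59.2 and 59.5 with the control plasmid and 59.5 and 59.5 with STYK1. Among markers of other cells, 5 of 10 for enterocytes and 2 of 8 for macrophages lay above it on all 4 arrays, and 0 of 5 for endothelium, 0 of 6 for fibroblasts and stellate cells and 0 of 5 for lymphocytes.

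None of the 10 apolipoprotein genes passed the test between cells transfected with STYK1 and with the control plasmid. The differences, STYK1 minus control, ran from −0.29 (APOC1) to 0.088 (APOA5) log2 units. At an adjusted p under 0.05 limma called 0 of 10, with adjusted p-values of 0.979 or more, where 0.00187% of all probe sets were called. At an unadjusted p under 0.05 it called 1, APOA4, where 4.64% of all probe sets were called. Of the 10 genes 4 were higher and 6 lower, with a median difference of −0.015, against 0.0056 over all probe sets and 0.0022 over all named genes. The median size of a difference was 0.065 for the 10 genes and 0.083 over all named genes. The groups did not overlap for 3 of the 10 (30%), APOA4, APOB and APOC1, and for 32.8% of all probe sets. The RNA came from whole cultures, in which fewer expressing cells and less RNA per cell cannot be told apart.

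**Figure D1:**
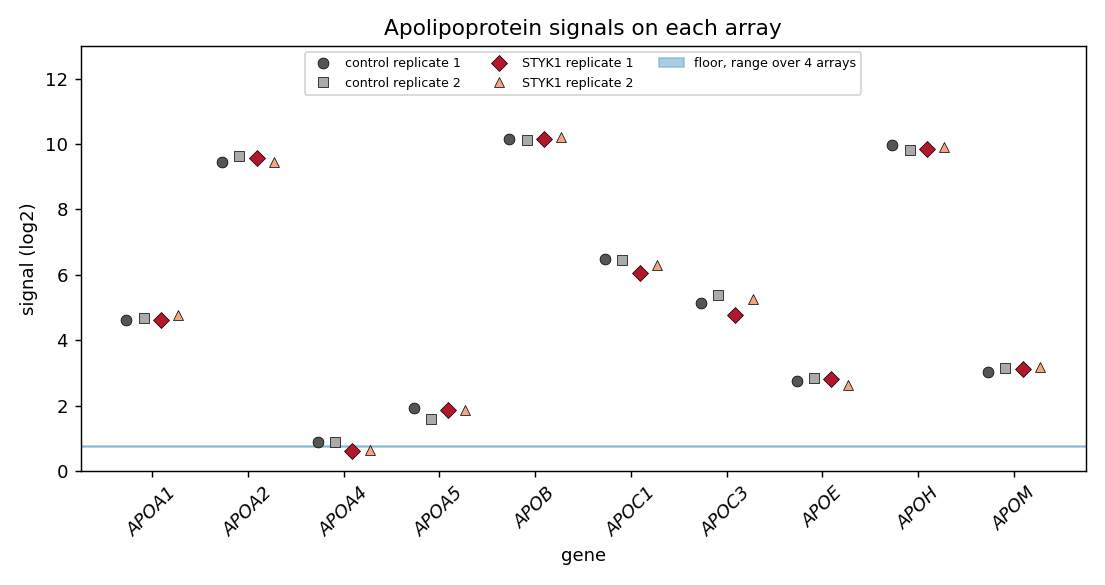
Log2 signal of each apolipoprotein gene (horizontal axis) on each of the 4 arrays (symbols), with the floor as a blue band. APOB, APOA2 and APOH gave signals above 9 on every array, and only APOA4 lay near the floor. Signals of different genes come from different probes and do not rank their amounts of RNA.

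APOB, the structural protein of very low and low density lipoprotein, read 10.15 and 10.12 on the control arrays and 10.16 and 10.22 on the STYK1 arrays. Both STYK1 arrays lay above both controls, but by little: the difference was 0.056 with a standard error of 0.085, and 0.029 without STYK1 array 2. Its 95% interval ran from −0.17 to 0.28, or 0.891-fold to 1.21-fold, short of the threshold (limma, adjusted p = 0.991). The 4 values spanned 0.096 log2 units, and 7.07% of named genes had a smaller span.

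APOA1, the main protein of high density lipoprotein and the activator of LCAT, read 4.62 and 4.68 with the control plasmid and 4.61 and 4.77 with STYK1. The STYK1 arrays were the lowest and the highest of the 4, so the groups overlapped, and the difference was 0.037 (95% interval −0.23 to 0.30). APOA2, the second protein of high density lipoprotein, read 9.45 and 9.64 with the control plasmid and 9.57 and 9.47 with STYK1. Here the controls were the outer values, and the difference was −0.022 (95% interval −0.31 to 0.26). For both genes the replicates of at least 1 group lay further apart than the group means did.

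APOM, a lipocalin that carries sphingosine 1-phosphate on high density lipoprotein, read 3.02 and 3.16 with the control plasmid and 3.12 and 3.18 with STYK1, a difference of 0.063 (95% interval −0.19 to 0.31). Those values come from 1 of its 7 probe sets. The other 6 held values identical to each other on every array, 3.09 and 3.11 with the control plasmid and 3.11 and 2.88 with STYK1. STYK1 array 2 was thus the highest array by the first probe set and the lowest by the other 6, and with these the difference was −0.10 (95% interval −0.39 to 0.19). The direction for APOM therefore depended on the probe set, and neither value passed (limma, adjusted p = 0.991 and 0.985).

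APOC1, an exchangeable apolipoprotein that holds back lipoprotein uptake and inhibits CETP, gave the largest difference of the 10. It read 6.49 and 6.44 with the control plasmid, 6.06 on STYK1 array 1 and 6.29 on STYK1 array 2, so both STYK1 arrays lay under both controls. The difference was −0.29 with a standard error of 0.11 (95% interval −0.58 to 0.0028), a control signal 1.22-fold that of the STYK1 arrays. It did not pass over all probe sets (limma, unadjusted p = 0.0515, adjusted p = 0.979). A difference of smaller size was found for 94.8% of named genes. Without STYK1 array 1 it was −0.18, and leaving out each of the 4 arrays in turn gave −0.40 to −0.18.

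APOC3, which slows the removal of triglyceride-rich particles, read 5.15 and 5.37 with the control plasmid, 4.78 on STYK1 array 1 and 5.25 on STYK1 array 2. The groups overlapped, since STYK1 array 2 lay between the controls. The mean difference of −0.25 had a standard error of 0.19 (95% interval −0.74 to 0.25; limma, adjusted p = 0.979) and rested on STYK1 array 1: without that array it was −0.0088, and without STYK1 array 2 it was −0.48. APOC3 had the widest span of the 10 genes, 0.59, wider than that of 94.7% of named genes.

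APOA4, an exchangeable apolipoprotein of chylomicrons, read 0.87 and 0.88 with the control plasmid and 0.62 and 0.63 with STYK1. The replicates were within 0.0087 of each other in the controls and within 0.0060 in the STYK1 arrays, and the groups did not overlap. The measured difference was −0.25 with a standard error of 0.083 (95% interval −0.47 to −0.032), short of the threshold (limma, unadjusted p = 0.0321, adjusted p = 0.979). The controls lay just above the floor and both STYK1 arrays under it. With the floor put in for the STYK1 values, the control signal was 1.08-fold higher, or 0.11 log2 units. That figure carries no sampling error, and the interval of the measured difference came closer to 0. Marker lists of other cells were summed on the same arrays. The summed signal of 5 endothelial markers, 0 of them above the floor on any array, was 2.73 and 2.76 in the controls against 2.35 and 2.44 in the STYK1 arrays. That of 6 fibroblast and stellate markers, 2 of them above the floor on at least 1 array, was 3.72 and 4.001 against 2.96 and 3.55. Both sums were lower in the STYK1 arrays, but no marker of either list lay above the floor on all 4 arrays, so no difference is read from them. For 5 lymphocyte markers it was 2.94 and 2.79 against 2.85 and 3.29, for 8 macrophage markers 9.22 and 8.94 against 9.46 and 8.88, and for 10 enterocyte markers 26.3 and 26.8 against 26.5 and 26.7. The groups overlapped in these 3 lists. What part any of this had in the APOA4 values was not tested.

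APOA5, an activator of triglyceride clearance that is made in the liver, read 1.94 and 1.60 with the control plasmid and 1.86 and 1.86 with STYK1. The controls enclosed both STYK1 values, and the difference was 0.088 (95% interval −0.28 to 0.45). APOE, the ligand through which remnant particles are taken up, read 2.74 and 2.84 with the control plasmid and 2.81 and 2.64 with STYK1, a difference of −0.067 (95% interval −0.34 to 0.21). APOH, or beta-2-glycoprotein I, a phospholipid-binding plasma protein, read 9.96 and 9.82 with the control plasmid and 9.86 and 9.90 with STYK1, a difference of −0.0090 (95% interval −0.26 to 0.24). The groups overlapped for each of these 3 genes.

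**Figure D2:**
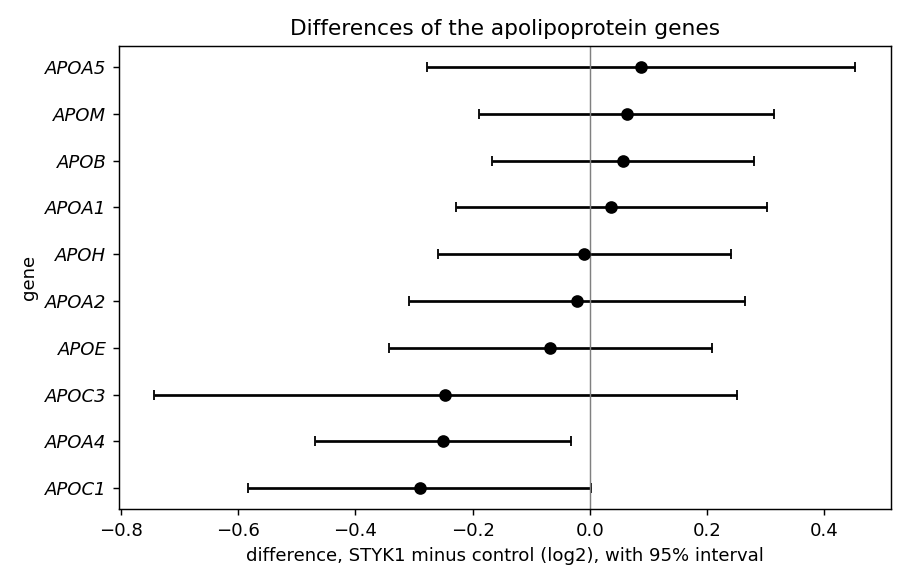
Difference in log2 signal, STYK1 minus control, for each gene (points) with its 95% interval from limma (bars; 2 arrays a group). APOC1, APOA4 and APOC3 lie lowest, at −0.29, −0.25 and −0.25, and the interval of APOA4 leaves out 0 before adjustment over all probe sets. Both STYK1 arrays of APOA4 were under the floor, so its point is a measured difference. With the floor in place of those values the controls were 0.11 log2 units higher, a figure without sampling error.

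The 95% intervals bound the differences these arrays allow. Their lower ends ran from −0.74 for APOC3 to −0.17 for APOB, and their upper ends from −0.032 for APOA4 to 0.45 for APOA5. The median standard error of the 10 genes was 0.10, and over all probe sets it was 0.11. In 7 of the 10 genes the replicates of at least 1 group lay further apart than the 2 group means, the exceptions being APOA4, APOB and APOC1. APOB was an exception by little, its group means lying 0.05645 apart and its STYK1 arrays 0.0553. The share of all named genes with such replicates was not counted.

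**Figure D3:**
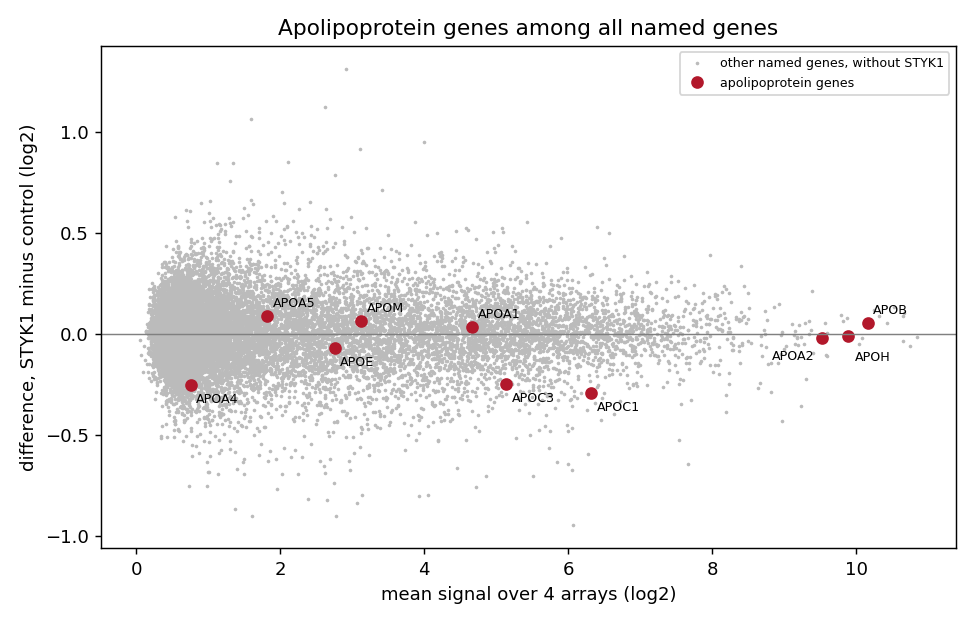
Difference in log2 signal, STYK1 minus control (vertical axis), against the mean log2 signal (horizontal axis) for the named genes without STYK1 (grey) and for the 10 apolipoprotein genes (red). The apolipoprotein genes lie inside the spread of the others, with APOC1 at −0.29, APOC3 at −0.25 and APOA4, under the floor on both STYK1 arrays, at a measured −0.25.

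Within the 10 genes, STYK1 array 1 was the lowest array for 4 (APOA1, APOA4, APOC1 and APOC3) and the highest for 0. Control array 2 was the highest for 4 (APOA2, APOA4, APOC3 and APOE) and the lowest for 3 (APOA5, APOB and APOH). The mean deviation from each gene's own mean was 0.024 and 0.040 in the controls, −0.069 in STYK1 array 1 and 0.0050 in STYK1 array 2. Over all named genes the 4 mean deviations lay between −0.0037 and 0.0054, but a mean over few genes varies more. Over the related lists described below, of 12 to 19 genes, they lay between −0.078 (transcription factors, STYK1 array 2) and 0.067 (assembly genes, STYK1 array 1). How often each array was lowest or highest among all named genes was not counted. Most of the low mean of STYK1 array 1 came from APOC3 and APOC1, which deviated by −0.36 and −0.26 in that array.

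**Figure D4:**
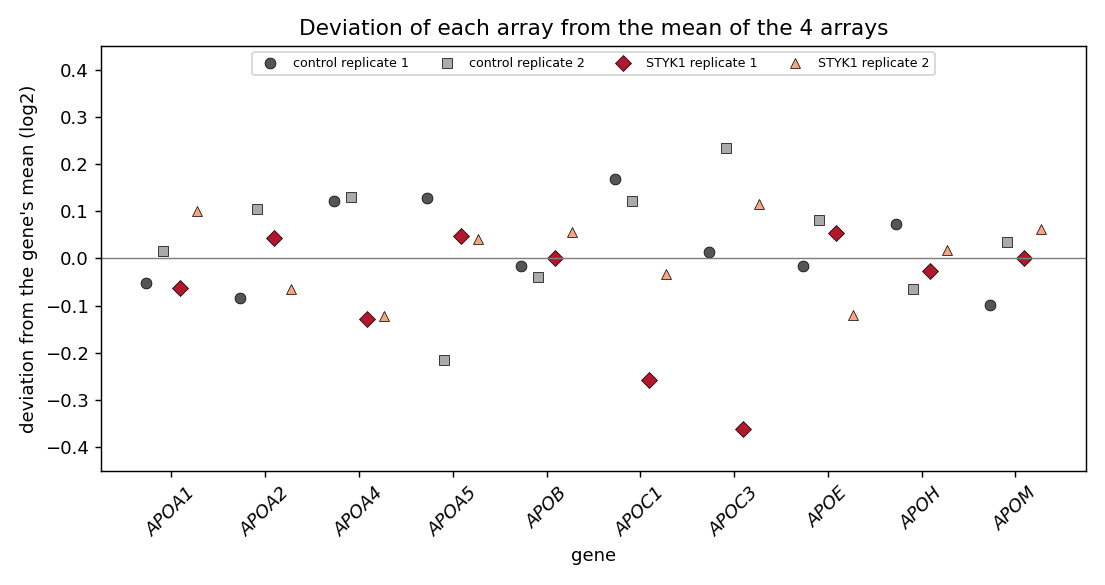
Deviation of each array (symbols) from the mean of the 4 arrays, in log2 units, for each apolipoprotein gene. STYK1 array 1 lies far below the rest for APOC3 (−0.36) and APOC1 (−0.26), while for APOA4 both STYK1 arrays, which were under the floor, lie together at −0.13 and −0.12.

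APOA5, APOA4, APOC3 and APOA1 lie next to each other on chromosome 11 in RefSeq's gene order, and their differences ran both ways. APOA4 and APOC3, which are neighbours, had measured differences of −0.25 and −0.25 (for APOA4 with the STYK1 arrays under the floor), while the outer genes APOA5 and APOA1 had 0.088 and 0.037. For APOC3 the groups overlapped, and its difference was −0.0088 without STYK1 array 1. ZPR1 and SIK3, the genes on either side of the cluster, differed by −0.047 and 0.093. APOE and APOC1 are neighbours on chromosome 19, with differences of −0.067 and −0.29. TOMM40, a mitochondrial import gene before APOE, differed by −0.076, and NECTIN2, before TOMM40, by −0.32. CLPTM1, the next measured gene after APOC1, differed by −0.14, and RELB, after CLPTM1, by 0.23. APOC4 and APOC2 follow APOC1 there and had no probe set with that symbol alone. None of these genes passed the test (limma, adjusted p of 0.979 or more).

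The genes whose 4 values ran most like those of APOC3 were MRM3, MRPS34 and NDUFA2, out of 10024 protein-coding genes above the floor. Likeness was the distance between the deviations on the 4 arrays, and it was 0.048, 0.062 and 0.067. MRM3 modifies mitochondrial ribosomal RNA, MRPS34 is a mitochondrial ribosomal protein and NDUFA2 a subunit of respiratory complex I. Each had its lowest value in STYK1 array 1, at 2.25, 5.65 and 4.21. A likeness over 4 arrays among so many genes is a description only.

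Other apolipoprotein genes gave no call either. Of 15 listed, 12 were measured and 6 of them lay above the floor on at least 1 array. Of the 12, 8 were higher and 4 lower, with a median difference of 0.038, and limma called 0, also at an unadjusted p under 0.05. CLU, or apolipoprotein J, a secreted chaperone, read 3.12 and 3.10 with the control plasmid and 2.91 and 3.003 with STYK1, a difference of −0.15 whose groups did not overlap. APOL6, of the intracellular APOL family, differed by 0.19 and APOOL, a mitochondrial inner membrane protein, by −0.12, and their groups overlapped. APOL2, of the same family as APOL6, was above the floor on control array 2 and STYK1 array 1 alone, so no difference is read from it.

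Genes listed for lipoprotein assembly and secretion, not all of which load or export APOB, gave no call. All 15 measured of 18 listed lay above the floor on all 4 arrays. Of these, 8 were higher and 7 lower, with a median difference of 0.043 and 0 calls by limma at either threshold. MTTP, the transfer protein that adds lipid to APOB, differed by 0.043 and was added here for its role, outside the naming rule. A1CF, a cofactor of APOB mRNA editing, read 7.82 and 7.45 with the control plasmid and 7.97 and 7.78 with STYK1, a difference of 0.24 that was 0.057 without control array 2 and 0.43 without control array 1. TMEM41B, a lipid scramblase needed for lipoprotein export, differed by 0.17, SURF4, a cargo receptor for lipoproteins in the endoplasmic reticulum, by 0.071 and CIDEB, a lipid droplet protein of particle maturation, by −0.10. These also rested on single arrays: without STYK1 array 1 TMEM41B differed by −0.046 and SURF4 by 0.015, and without STYK1 array 2 CIDEB differed by −0.043.

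Receptors and uptake genes were measured for 14 of 18 listed, and 11 of the 14 lay above the floor on at least 1 array. With those under it counted too, 9 were higher and 5 lower, with a median difference of 0.026. None passed over all probe sets, and 1 of the 14 had an unadjusted p under 0.05, where 4.64% of all probe sets had one. That gene was LRPAP1, a chaperone of LRP-type lipoprotein receptors, which read 3.67 and 3.60 with the control plasmid and 3.38 and 3.23 with STYK1. Its groups did not overlap, and the difference was −0.33 with a standard error of 0.099 (limma, unadjusted p = 0.0235, adjusted p = 0.979). LRP6, an LRP receptor that serves as a WNT coreceptor, read 4.87 and 4.83 against 5.06 and 5.05, a difference of 0.21. LSR, a receptor for triglyceride-rich particles, differed by −0.20 (−0.13 without control array 2), and MYLIP, a ubiquitin ligase, by 0.18 near the floor.

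Lipases, remodelling enzymes and efflux transporters were measured for 17 of 20 listed. Of these, 14 lay above the floor on at least 1 array. Counting all 17, 12 were lower and 5 higher, the median being −0.054, and limma called 0 at either threshold. LCAT, the enzyme that APOA1 activates to esterify cholesterol, read 3.94 and 3.64 with the control plasmid and 3.54 and 3.31 with STYK1, a difference of −0.37. LIPG, endothelial lipase, read 2.64 and 2.173 against 1.82 and 2.166, a difference of −0.41 in which the nearest values of the groups almost met. PLA2G7, a lipoprotein-bound phospholipase, differed by −0.15, and ABCG8, a sterol transporter subunit, by −0.28 with groups that overlapped. Without control array 1 the differences of LCAT, LIPG and ABCG8 were −0.21, −0.18 and −0.11, and without control array 2 they were −0.52, −0.64 and −0.45.

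Transcription factors known to act on apolipoprotein genes were measured for 19 of 26 listed. Of these, 18 lay above the floor on at least 1 array. Counting all 19, 12 were lower and 7 higher, the median being −0.069. None passed over all probe sets, and 2 of the 19 had an unadjusted p under 0.05, where 4.64% of all probe sets had one. FOXO1, which raises APOC3 and MTTP transcription when insulin signalling is low, read 1.76 and 1.79 with the control plasmid and 2.11 and 2.41 with STYK1. The difference was 0.48 with a standard error of 0.13 (limma, unadjusted p = 0.0147, adjusted p = 0.979). NR1H3, the oxysterol receptor LXR alpha, which acts on APOE and APOC1, read 1.20 and 1.14 with the control plasmid, 0.60 on STYK1 array 1, which is under the floor, and 0.86 on STYK1 array 2. One side of its measured difference of −0.44 (limma, unadjusted p = 0.0161, adjusted p = 0.979) thus rests in part on background, with 1 of the 2 STYK1 arrays above the floor. FOXA3 differed by −0.82, with 3.06 and 3.05 with the control plasmid, 2.73 on STYK1 array 1 and 1.73 on STYK1 array 2, and by −0.32 without STYK1 array 2 and −1.32 without STYK1 array 1. CEBPA, a factor of liver identity, differed by −0.23, and by −0.11 without STYK1 array 1 and −0.35 without STYK1 array 2. HNF4A had no probe set with that symbol alone.

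**Figure D5:**
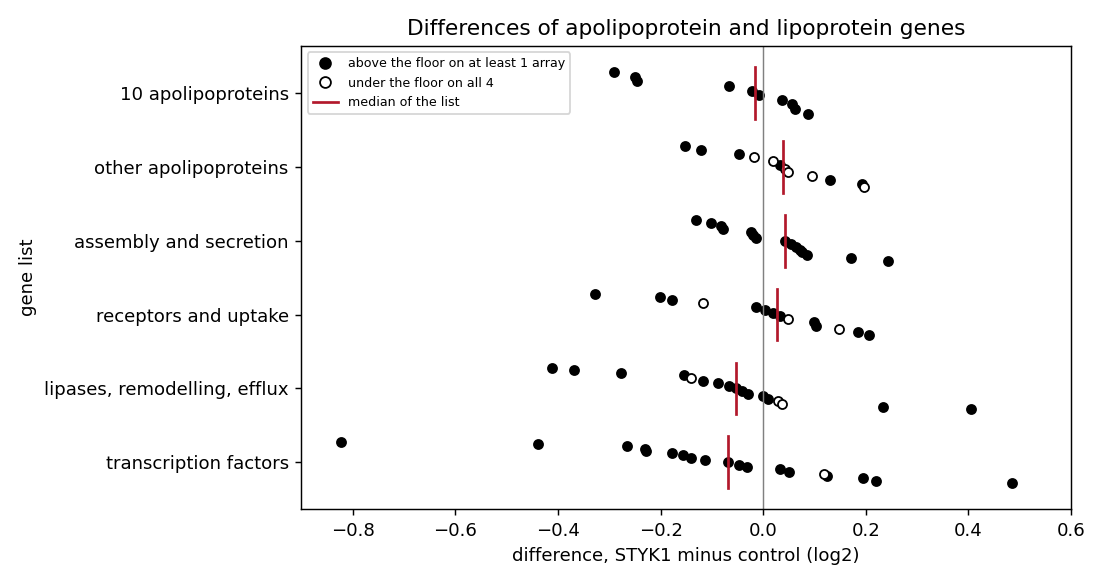
Difference in log2 signal, STYK1 minus control, for the 10 apolipoprotein genes and for the genes of the 5 related lists (points, 1 per gene; open points lay under the floor on all 4 arrays), with the median of each list as a red line. The medians lie between −0.069 and 0.043, and the transcription factors hold the outermost points, FOXA3 at −0.82 and FOXO1 at 0.48.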

How the data were processed

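Per the labels' protocols, biotin-labelled cDNA of 2 control and 2 STYK1 samples was hybridised to Affymetrix arrays. The authors' deposited values were taken as log2 signals, since medians lie between 0.615 and 0.629 and the largest value is 11.3. Per the submitters' processing notes the software was the Transcriptome Analysis Console. Normalization and build were not given in the sources used here. This table holds no detection calls or scan dates, so no batch could be tested, and shrinkage of dim signals by the authors' processing would lower their differences.

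Of 53617 probe sets, 23871 had 1 gene symbol in the platform annotation, 1842 had several and 27904 had none here. Symbols of 22569 were updated by Entrez ID through RefSeq (GRCh38.p14), used for names and gene order. Arrays of a group held equal values at 242 (control) and 171 (STYK1) probe sets, so none was a copy.

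Groups were compared with limma 3.58.1 (R 4.3.3; lmFit, eBayes without a trend, two-sided) on all probe sets, with Benjamini-Hochberg adjustment over all of them and a threshold of 0.05. The script was tested on simulated data. Residual degrees of freedom were 2 and the prior 2.71. An exact permutation test of 2 against 2 arrays has p = 0.333 as its smallest value and was not run. Up to 4 genes per related list were named, those above the floor with the smallest p, and 3 genes of like profile. Members and lists were chosen with earlier results of these data known. Of 151 listed genes 128 were measured. Alternatives were leaving out each array, the replicate block, quantile normalization, a filter at the floor on at least 2 arrays, an intensity trend, 1 probe set per gene and the mean over a gene's probe sets.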

Additional observations from a re-analysis of the deposited data

How the results depend on the processing

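No apolipoprotein gene was called under any alternative run, and 0 to 2 of the 10 had an unadjusted p under 0.05, against 4.1% to 5.26% of all features tested under the same alternatives. Leaving out 1 array at a time (a group left with 1 array borrows the spread of the other) gave 0 called probe sets (lowest 0, highest 0), a STYK1 difference of 6.96 to 7.42 without its call, and a median apolipoprotein difference of −0.060 to 0.0020. Directions turned in that range for APOA1 (−0.045 to 0.12), APOA2 (−0.12 to 0.072), APOA5 (−0.084 to 0.26), APOE (−0.15 to 0.020), APOH (−0.078 to 0.060), APOM (−0.0040 to 0.13), APOL6 (−0.14 to 0.52), APOOL (−0.36 to 0.12), APOL2 (−0.13 to 0.39) and TMEM41B (−0.046 to 0.39). APOH turned to 0.013 with quantile normalization and APOM to −0.077 with the mean over its probe sets. Those of APOA4, APOB, APOC1 and APOC3 turned under none. For APOA4, APOB and APOC1 the groups did not overlap, so leaving out 1 array could not turn them. The APOC3 difference fell to −0.0088 without STYK1 array 1. In all, 314 of 330 values for 33 genes kept their direction and side of the threshold. Much of that count was fixed in advance. The replicate block, the filter at the floor, the intensity trend and 1 probe set per gene leave each difference unchanged. None of the 33 genes was past the threshold in the main fit. Same-numbered arrays deviated together with a correlation of −0.044 over all probe sets, and nothing in the labels pairs them. With the replicate number as a block, 0 probe sets passed and the STYK1 difference was 7.19 (adjusted p = 0.0637). The cause of these moves was not tested. With 2 arrays a group, differences of the size seen here could not be told from 0.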
